A study of Rattus norvegicus with 9 samples.

Results

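The genes described here are the 162 rat genes that the KEGG annotation of the deposited table places in the cytokine-cytokine receptor interaction pathway, out of 20645 listed genes, of which 6285 carry any KEGG entry. Membership was set by that annotation and not by the level of a gene, but the pathway was chosen with earlier results of these data known. The levels are those of INS-1E cells, a clonal rat insulinoma line widely used as a model of the pancreatic beta cell. Cells were exposed for 24 h to BSA, the albumin that carries fatty acid and which served as control, to PA (0.5 mM palmitic acid bound to BSA), or to PA + C3G (0.5 mM PA together with 50 µM cyanidin-3-O-glucoside, an anthocyanin). Each group had 3 libraries of polyadenylated RNA. Nothing in the labels says that the 3 came from separate cultures, so the p-values measure the spread between these libraries, which may be technical.

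Cytokines are secreted proteins that carry messages between cells. Interleukins and hormones of the growth hormone type bind receptors that act through JAK kinases and STAT factors, the TNF and IL-1 families act through NF-κB, ligands of the TGF-β family act through receptor kinases and SMAD proteins, and chemokines bind G protein-coupled receptors. Beta cells are a known target of several of them. IL-1β, TNF and interferon-γ are used in culture to injure beta cells, whereas prolactin and growth hormone are known to promote their growth.

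Of the 162 genes, 66 had a mean of at least 1 FPKM (mapped fragments scaled to gene length and to sequencing depth) over the 9 libraries and are called expressed here. That is 40.7% of the members, against 62.8% of all listed genes. The other 96 genes, 59.3%, lay under a mean of 1 FPKM. No member, and no gene of the whole table, was at 0 in all 9 libraries. A pathway gene without any estimate would therefore not be among the 162. The shares hold for listed genes only and can understate how many pathway genes were silent. Among the receptors 41 of 85 (48.2%) were expressed, and among the ligands 25 of 77 (32.5%). The 27 genes with a mean above 10 FPKM comprised 22 receptors and 5 ligands, the 5 being Gdf15, Gdf11, Gdf1, Bmp3 and Cxcl16. By family, 17 of 39 genes of the helical cytokines and their receptors were expressed, 17 of 34 of the TGF-β family, 10 of 33 of the TNF family, 7 of 15 of the interferon and IL-10 family, 5 of 21 chemokine genes, 4 of 10 of the IL-1 family and 4 of 6 of the IL-17 family. No ligand of the interferon and IL-10 family was expressed, against 7 of its 9 receptors.

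**Figure D1:**
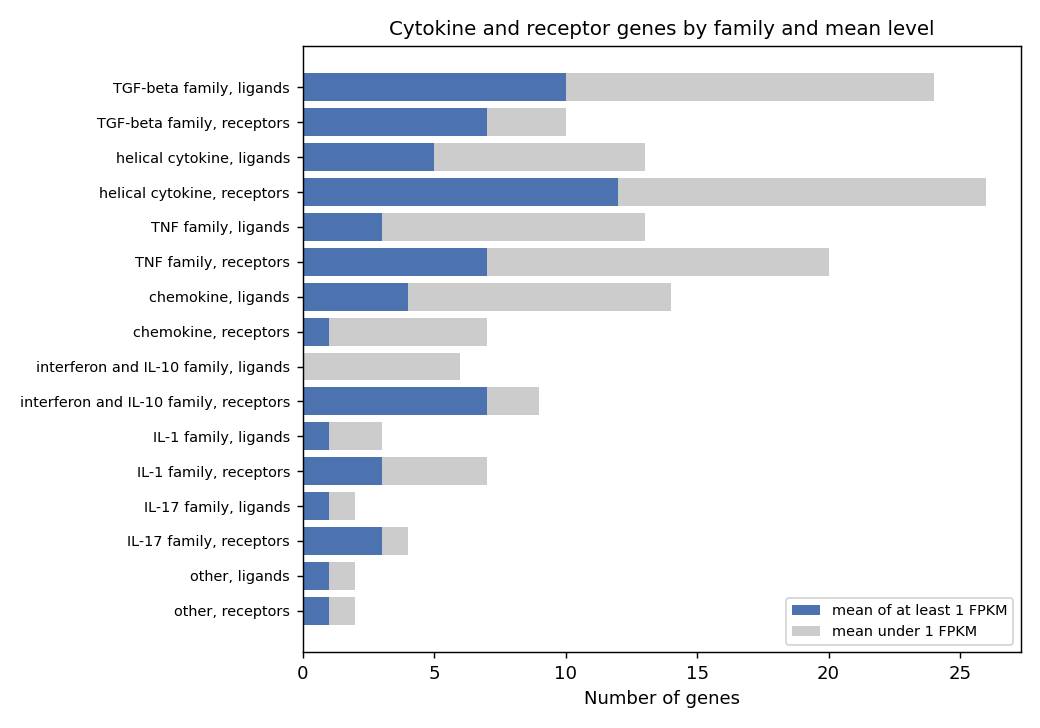
Number of genes (x axis) of each cytokine family, with ligands and receptors on separate bars (y axis). Blue marks genes with a mean of at least 1 FPKM over the 9 libraries and grey those under it, and the grey share is larger for ligands (52 of 77) than for receptors (44 of 85).

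The labelled cell type fitted its markers. All 11 beta cell marker genes were expressed, with a summed level between 22400 and 52600 FPKM per library. The leukocyte markers summed to between 0.290 and 0.812 FPKM (0 of 5 listed genes expressed), the 1 listed T cell marker reached at most 0.0537 FPKM, and the 3 listed endothelial markers summed to between 0.119 and 0.319 FPKM. Of the 3 listed fibroblast markers 1, Pdgfra, was expressed, at 2.38, 3.26 and 2.66 FPKM in the BSA, PA and PA + C3G groups, and it was higher with PA (log2 fold change 0.48, edgeR adjusted p = 0.00418). Libraries held estimated counts of 45559993 to 66730721 in total, and the correlation of log2(FPKM + 1) across genes was 0.981 to 0.985 between libraries of a group and 0.943 to 0.977 across groups.

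Promoter sequences are shown for 4 expressed genes whose transcripts behaved differently in the comparisons that follow, namely the receptor gene Il1r1, the neighbouring chemokine genes Cxcl10 and Cxcl11, and the TGF-β family gene Inhbe. They are the 250 bases before the start of the gene in RefSeq on GRCr8, on the strand of the gene, at chr9:50034133-50034382 (plus), chr14:15988816-15989065 (plus), chr14:15973478-15973727 (plus) and chr7:65064520-65064769 (minus). Capitals mark matches, on either strand, to any of 5 motifs chosen after the expression values were known.
Il1r1: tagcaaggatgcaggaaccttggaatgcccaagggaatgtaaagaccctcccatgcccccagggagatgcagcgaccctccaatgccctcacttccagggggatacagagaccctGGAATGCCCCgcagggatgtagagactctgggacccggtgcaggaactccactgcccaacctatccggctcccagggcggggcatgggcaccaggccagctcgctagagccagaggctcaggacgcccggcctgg
Cxcl10: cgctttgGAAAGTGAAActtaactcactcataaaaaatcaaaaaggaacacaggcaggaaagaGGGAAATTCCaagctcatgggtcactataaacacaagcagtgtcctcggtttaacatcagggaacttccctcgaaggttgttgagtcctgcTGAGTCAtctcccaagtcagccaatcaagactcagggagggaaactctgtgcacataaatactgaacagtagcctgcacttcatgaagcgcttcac
Cxcl11: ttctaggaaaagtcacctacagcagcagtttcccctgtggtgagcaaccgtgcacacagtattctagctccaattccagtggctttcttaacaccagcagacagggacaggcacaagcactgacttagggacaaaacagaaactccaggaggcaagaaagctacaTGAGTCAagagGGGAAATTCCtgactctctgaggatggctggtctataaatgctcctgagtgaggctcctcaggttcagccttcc
Inhbe: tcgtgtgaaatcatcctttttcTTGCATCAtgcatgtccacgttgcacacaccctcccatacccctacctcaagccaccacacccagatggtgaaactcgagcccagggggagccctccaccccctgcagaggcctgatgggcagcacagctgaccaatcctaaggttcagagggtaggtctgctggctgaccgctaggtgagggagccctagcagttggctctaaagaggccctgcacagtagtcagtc

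A RefSeq promoter was found for 53 of the 66 expressed members. The NF-κB motif was present in 9 of the 53 (17.0%) and in 3.54% of 33469 rat promoters, and the 9 included Il1r1, Cxcl10 and Cxcl11. The AP-1 motif TGANTCA was present in 8 (15.1%), against 6.34% of all promoters, and these included Cxcl10, Cxcl11, Prlr and Il15. The interferon-stimulated response element was present in 3 (5.66%), against 3.41%, which were Cxcl10, Il6st and Il1rap. The C/EBP-ATF element TGATGCAA, present in 0.693% of promoters, occurred in Inhbe among the members, 228 to 221 bases before the start, and the CRE TGACGTCA, present in 1.59%, in none of the 53. Members were counted once per gene, whereas the shares of all promoters count each promoter entry, also those of genes not expressed here. The matches are descriptions of letters in this window, and no binding was measured.

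The effect of PA was tested by edgeR's quasi-likelihood test over all 12958 expressed genes of the table, with Benjamini-Hochberg adjustment and a threshold of 0.05, which also holds for each comparison that follows. PA changed 32 of the 66 expressed members relative to BSA, 16 higher and 16 lower. This share is close to that of all tested genes, of which 51.0% were called, 25.8% higher and 25.2% lower. The libraries of the 2 groups did not overlap for 31 of the 32, where 49.8% of all tested genes were called without overlap. The median log2 fold change of the members was 0.01. By the criterion of more than 2-fold at an unadjusted p under 0.05, the count was 12 (5 higher, 7 lower), beside 7.56% of all tested genes. The 12 spanned from Tgfb2, which fell by 2.51 on the log2 scale, to Il23a, which rose by 2.63.

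C3G given with PA changed 21 of the 66 relative to PA alone, 15 higher and 6 lower, where 21.2% of all tested genes were called, 11.1% higher and 10.2% lower. Setting the FPKM sums of the libraries equal gave 18 calls, 11 higher and 7 lower. The libraries did not overlap for the 21, where 20.9% of all tested genes were called without overlap, and 5 passed the 2-fold criterion, beside 1.13%. The median log2 fold change of the members was 0.14, beside 0.00 over all tested genes. Relative to BSA, 28 members differed in the PA + C3G group, 19 higher and 9 lower, where 36.9% of all tested genes were called, 19.0% higher and 17.9% lower. None of the 28 had overlapping libraries, where 34.9% of all tested genes were called without overlap, and 9 passed the 2-fold criterion, beside 4.63%. The PA libraries enter the first 2 comparisons and the BSA libraries the first and the last, so the 3 comparisons are given side by side and not as independent evidence. Of the 16 genes that PA raised, 5 were lower and 1 was higher in PA + C3G than in PA. Of the 16 genes that PA lowered, 8 were higher in PA + C3G than in PA and none was lower. A further 7 genes differed between PA + C3G and PA without a call for PA against BSA, and 24 of the 66 were called in none of the 3 comparisons. The shares of all tested genes with these pairs of calls were not counted. Both comparisons hold the PA libraries, so opposite calls can arise in any set of genes. These counts therefore do not show a trait of the members. All 11 beta cell markers were higher in PA + C3G than in PA, and 9 of them were lower in PA than in BSA. In bulk RNA, fewer cells of a type and less RNA per cell cannot be told apart.

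**Figure D2:**
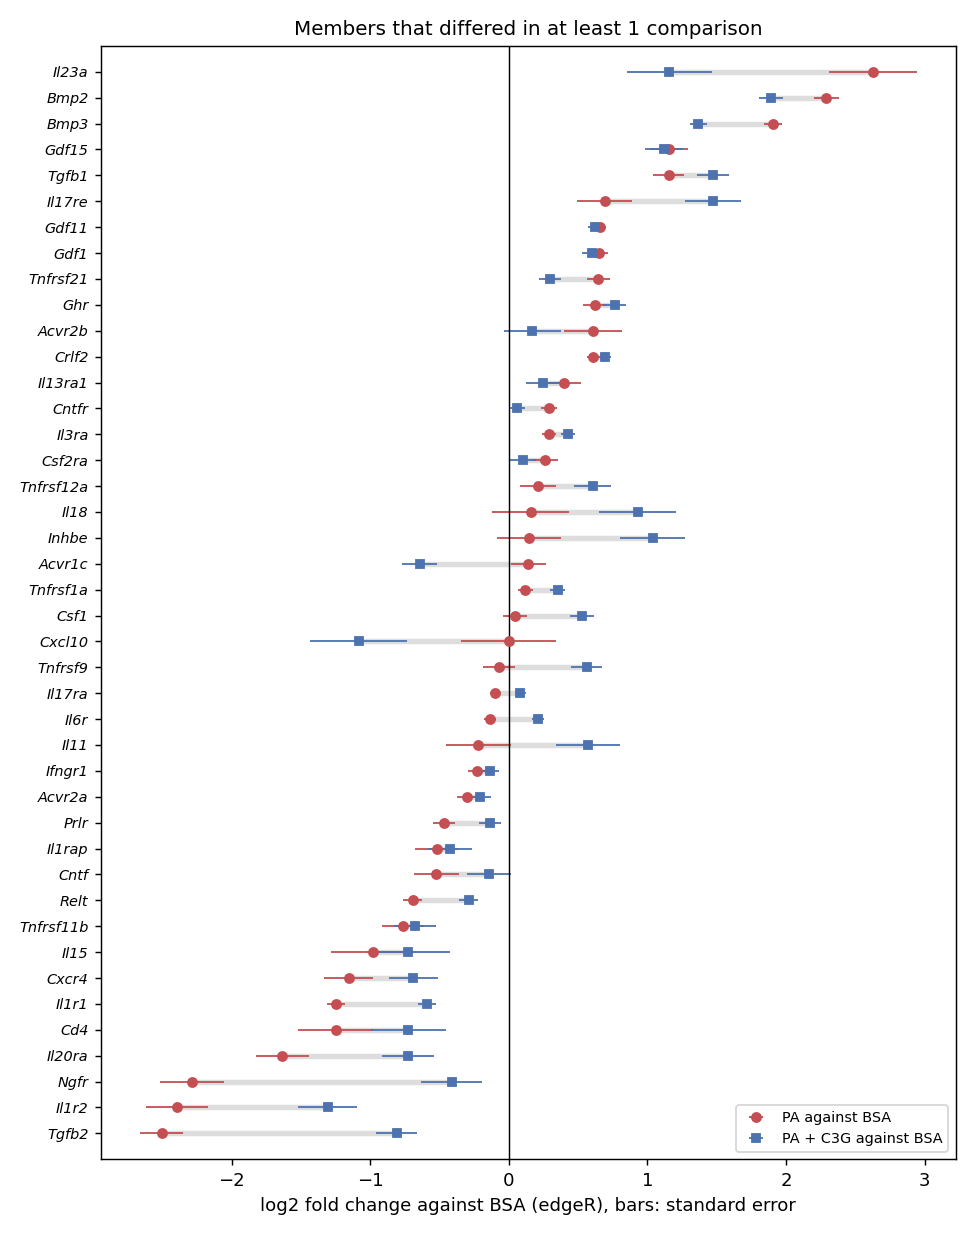
Log2 fold change against BSA (x axis, edgeR estimate with its standard error) of the 42 expressed genes called in at least 1 of the 3 comparisons (y axis, ordered by the PA value), with red circles for PA and blue squares for PA + C3G. The blue square lies nearer to 0 than the red circle for Ngfr, Tgfb2, Il1r2 and Il1r1 at the lower end and for Il23a, Bmp2 and Bmp3 at the upper end, and the marks nearly coincide for Gdf15, Gdf11 and Gdf1.

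PA lowered the 3 expressed IL-1 family receptors of 7, namely Il1r1, Il1r2 and Il1rap, where 25.2% of all tested genes were called lower. Of the 4 others, in the fit without a filter on low values, Il1rl2 and Il18rap were called lower (edgeR adjusted p = 0.00239 and 0.00871). Il18r1 and Il1rl1 were not called there (adjusted p = 0.921 and 0.0885). Il1r1, the signalling receptor for IL-1 (ENSRNOG00000014504, chr9:46962288-47036670 in the coordinates of the table), was the highest of all members in the BSA group. Its level was 124.6, 133.5 and 130.1 FPKM with BSA, 49.98, 58.79 and 51.94 FPKM with PA, and 77.69, 85.55 and 83.92 FPKM with PA + C3G, so that the 3 groups did not overlap and the PA + C3G libraries lay between the other two. The log2 fold change was −1.25 ± 0.07 (SE) for PA against BSA (edgeR adjusted p = 3.74e-07), 0.66 ± 0.07 for PA + C3G against PA (adjusted p = 0.000274) and −0.59 for PA + C3G against BSA (adjusted p = 8.26e-05). Il1r2, a decoy receptor that binds IL-1 without signalling, had the same order of groups at a much lower level. It stood at 3.549, 2.473 and 3.057 FPKM with BSA, 0.5895, 0.4473 and 0.6541 with PA, and 1.351, 1.008 and 1.153 with PA + C3G. Differences on the log2 scale were −2.39 ± 0.22 for PA (adjusted p = 1.57e-05) and 1.09 ± 0.22 for PA + C3G against PA (adjusted p = 0.00775). Il1r2 reached a mean of 1 FPKM only through its BSA libraries. Its fall with PA, and the count of 3 lowered receptors, are thus not independent of the filter. Il1rap, the accessory chain that IL-1R1 needs to signal, fell by 0.52 on the log2 scale with PA (adjusted p = 0.0191) from 2.22 FPKM. Its call was lost without BSA replicate 1 or 3 or PA replicate 2 or 3 (adjusted p 0.0509 to 0.0666), and it did not pass between PA + C3G and PA (0.10, adjusted p = 0.718).

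Of the ligands of IL-1R1, Il1a was listed at 0 in 8 of the 9 libraries, and Il1b is not analysed here. Il18, the 1 expressed ligand of the family, held 0.6597, 0.9637 and 1.343 FPKM with BSA, 1.341, 0.8979 and 1.004 with PA, and 1.727, 1.773 and 1.942 with PA + C3G. All 3 PA + C3G libraries lay above the others. Il18 passed the test for PA + C3G against BSA (0.93 ± 0.28, adjusted p = 0.0257), and not against PA (0.77 ± 0.28, adjusted p = 0.0774), although the latter was called without BSA replicate 1 (0.77). The call against BSA was lost without BSA replicate 1 or 2 or any 1 of the PA + C3G libraries (adjusted p 0.0509 to 0.0752). The gene overlaps Bco2 on the opposite strand, with a mean of 2.94 FPKM. Il18r1, its receptor, averaged 0.839, 0.849 and 1.01 FPKM in the 3 groups, and the accessory chain Il18rap 0.776, 0.34 and 0.432 FPKM.

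Among the receptors of the helical cytokines, 12 of 26 were expressed. PA raised 6 of them and lowered 2, where 25.8% of all tested genes were called higher and 25.2% lower. Il3ra, the ligand-binding chain of the IL-3 receptor, had the highest mean of all members over the 9 libraries. It stood at 82.42, 91.27 and 83.93 FPKM with BSA, 105.9, 97.61 and 105.7 with PA, and 112.9, 107.1 and 112.3 with PA + C3G. This was a log2 fold change of 0.29 ± 0.05 for PA (edgeR adjusted p = 0.000963) and 0.43 ± 0.05 for PA + C3G against BSA (adjusted p = 0.000122). The PA + C3G libraries lay above the PA libraries without passing the test (0.14, adjusted p = 0.075), except that it passed without BSA replicate 2 (0.14). Il3ra overlaps Asmtl on the opposite strand (mean 31.2 FPKM). Csf2rb, the common chain through which the IL-3 and GM-CSF receptors signal, was listed at 0 in 7 of 9 libraries and reached 0.0238 FPKM at most. Csf2ra, the binding chain for GM-CSF, rose by 0.26 on the log2 scale with PA (adjusted p = 0.0371), a call that was lost without BSA replicate 2 or 3, PA replicate 1 or 3 or PA + C3G replicate 1 (adjusted p 0.0533 to 0.131).

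Ghr, the growth hormone receptor, rose with PA and was not lower with PA + C3G. Its libraries held 55.47, 45.43 and 50.86 FPKM with BSA, 84.19, 71.59 and 73.82 with PA, and 86.97, 76.72 and 83.39 with PA + C3G, so that the PA and PA + C3G groups overlapped with each other and neither with BSA. On the log2 scale the differences were 0.62 ± 0.08 for PA (edgeR adjusted p = 0.000187) and 0.14 ± 0.08 for PA + C3G against PA (adjusted p = 0.265). The latter was called with the replicate number as a block (0.14, adjusted p = 0.0284). Prlr, the receptor for prolactin and placental lactogen, moved the other way. It stood at 32.64, 30.94 and 31.19 FPKM with BSA, 20.27, 25.35 and 21.8 with PA, and 25.78, 29.1 and 27.76 with PA + C3G, and the 3 groups did not overlap. The log2 fold change was −0.47 ± 0.08 for PA (adjusted p = 0.000902) and 0.33 ± 0.08 for PA + C3G against PA (adjusted p = 0.0177). The second call was lost at equal FPKM sums (adjusted p = 0.0544) and without PA replicate 1 or 3 or PA + C3G replicate 2 or 3 (adjusted p 0.0542 to 0.0676).

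Crlf2, a chain of the TSLP receptor, was 42.96 to 45.7 FPKM with BSA, 64.3 to 69.05 with PA and 67.11 to 72.23 with PA + C3G. It rose by 0.61 ± 0.05 on the log2 scale with PA (edgeR adjusted p = 3.89e-06) and did not pass between PA + C3G and PA (0.09, adjusted p = 0.22). Tslp, the ligand, held 1.936 to 3.035 FPKM with BSA, 3.122 to 4.206 with PA and 2.629 to 5.952 with PA + C3G, and passed in none of the comparisons, except for PA + C3G against BSA without PA + C3G replicate 3 (0.95). Il13ra1, a chain of the receptors for IL-4 and IL-13, rose by 0.40 ± 0.12 on the log2 scale with PA (adjusted p = 0.0213), and the call was lost without BSA replicate 2 or PA replicate 1 or 2 (adjusted p 0.0671 to 0.0818). A separate locus, LOC100360218, also carries the description IL-13 receptor alpha 1 and could share reads with it. It ranged from 1.268 to 4.886 FPKM within the BSA group and passed in no comparison, so the 2 entries are uncertain.

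The receptors that signal through gp130 behaved unequally. Il6st, which encodes gp130, held 36.57 to 45.14 FPKM over the 9 libraries and was called in no comparison, with a log2 fold change of 0.04 ± 0.07 for PA against BSA. Its partners Cntfr and Il6r were called. Cntfr, the receptor for ciliary neurotrophic factor, was 41.35, 41.75 and 41.45 FPKM with BSA, 51.39, 47.84 and 50.7 with PA, and 45.49, 38.9 and 39.98 with PA + C3G, the PA libraries being above both other groups. It rose by 0.29 ± 0.06 with PA (edgeR adjusted p = 0.00247) and fell by 0.23 ± 0.06 between PA + C3G and PA (adjusted p = 0.022). The fall was no longer called without PA replicate 1 or 3 or PA + C3G replicate 2 or 3 (adjusted p 0.0584 to 0.0739).

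Il6r, the IL-6 binding chain, was 14.22 to 14.96 FPKM with BSA, 12.58 to 13.67 with PA and 16.06 to 16.57 with PA + C3G, with no overlap between any of the groups. It was higher in PA + C3G than in PA (0.35 ± 0.04, adjusted p = 0.000907) and than in BSA (0.21 ± 0.04, adjusted p = 0.0044). The smaller fall with PA (−0.13, adjusted p = 0.0295) was lost at equal FPKM sums (adjusted p = 0.0736) and without BSA replicate 2 or 3 or PA replicate 2 or 3 (adjusted p 0.0523 to 0.111). Lifr held 1.07 to 1.71 FPKM and was called in no comparison. The IL-11 chain Il11ra1 lay at 0.1279 FPKM or less, and Lepr, the leptin receptor, at 0.1327 FPKM or less.

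In the TNF receptor family, 7 of 20 genes were expressed, and PA lowered 3 and raised 1 (51.0% of all tested genes were called). Ngfr encodes p75, a receptor for nerve growth factor and other neurotrophins that belongs to the TNF receptor family (ENSRNOG00000005392, chr10:83389847-83408061). Its libraries held 55.12, 66.95 and 59.8 FPKM with BSA, 10.06, 15.99 and 10.62 with PA, and 31.29, 56.26 and 43.55 with PA + C3G. All PA libraries were lowest, and the PA + C3G libraries overlapped with BSA in 1 case, replicate 2. The log2 fold change was −2.28 ± 0.23 for PA (edgeR adjusted p = 2.67e-05), 1.87 ± 0.23 for PA + C3G against PA (adjusted p = 0.000695) and −0.41 ± 0.22 for PA + C3G against BSA (adjusted p = 0.174). Without PA + C3G replicate 2 the last value was −0.64 and was called.

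Relt, another receptor of this family, fell from 15.01 to 18.21 FPKM with BSA to 9.852 to 10.25 with PA (−0.69 ± 0.07, edgeR adjusted p = 2.61e-05) and lay at 12.75 to 13.15 with PA + C3G (0.40 ± 0.07 against PA, adjusted p = 0.00381). Tnfrsf11b, osteoprotegerin, which is secreted and binds RANKL, was 5.696 to 8.043 FPKM with BSA, 3.39 to 4.383 with PA and 3.567 to 4.516 with PA + C3G. It fell by 0.76 ± 0.15 with PA (adjusted p = 0.00226) and did not pass between PA + C3G and PA (0.09, adjusted p = 0.74). Tnfrsf21, a receptor with a death domain also known as DR6, moved in the other direction. It was 18.68, 17.87 and 18.18 FPKM with BSA, 30.87, 24.37 and 28.92 with PA, and 23.18, 20.17 and 21.1 with PA + C3G, with no overlap. Its log2 fold change was 0.65 ± 0.08 for PA (adjusted p = 0.000126) and −0.35 ± 0.08 for PA + C3G against PA (adjusted p = 0.0154). The second call was lost without PA replicate 3 or PA + C3G replicate 3 (adjusted p 0.0519 to 0.0556).

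Genes of the family were also higher with C3G where PA alone gave no call. Tnfrsf1a, the main TNF receptor of most cells, was 28.28 to 29.45 FPKM with BSA, 29.25 to 32.96 with PA and 33.91 to 37.31 with PA + C3G. It differed by 0.35 ± 0.06 on the log2 scale for PA + C3G against BSA (edgeR adjusted p = 0.000847) and 0.23 ± 0.06 against PA (adjusted p = 0.0162). The value against PA was not called at equal FPKM sums (adjusted p = 0.0781) or without PA replicate 3 or PA + C3G replicate 1 (adjusted p 0.0608 to 0.0619). For this gene PA against BSA did not pass (0.12, adjusted p = 0.0993). That difference was called at equal FPKM sums (0.15, adjusted p = 0.0405) and without PA replicate 3 (0.16, adjusted p = 0.0413). Tnfrsf9, the co-stimulatory receptor 4-1BB, was 5.018, 5.479 and 5.29 FPKM with BSA, 4.94, 5.306 and 4.536 with PA, and 8.288, 6.711 and 7.325 with PA + C3G. All PA + C3G libraries were above the other 6, and the log2 fold change was 0.63 ± 0.11 against PA (adjusted p = 0.00469) and 0.56 ± 0.11 against BSA (adjusted p = 0.00372). Its ligand gene Tnfsf9 averaged 0.832, 0.374 and 0.352 FPKM. Tnfrsf12a, the receptor for TWEAK, was higher in PA + C3G than in BSA (0.60 ± 0.13, adjusted p = 0.00564) and did not pass against PA (0.39 ± 0.13, adjusted p = 0.0616), where DESeq2 called it, as did edgeR without PA + C3G replicate 2 (0.50).

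**Figure D3:**
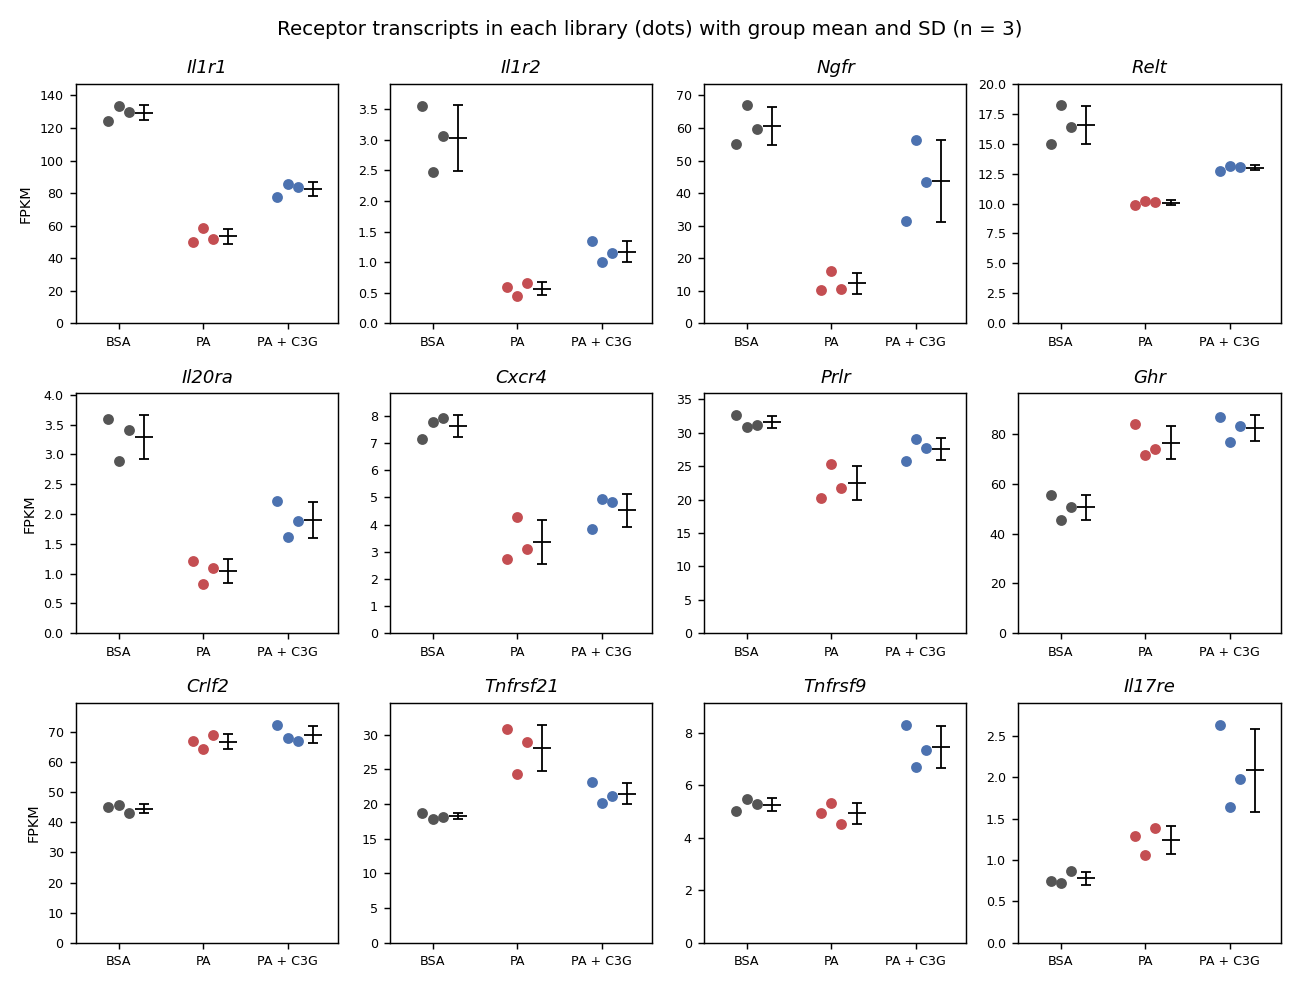
FPKM (y axis, starting at 0) of 12 receptor genes in each library of the BSA, PA and PA + C3G groups (x axis), with dots for libraries and a bar for the group mean and its SD (n = 3). For Il1r1, Il1r2, Relt, Il20ra and Prlr the PA + C3G dots lie between those of the other groups, whereas for Tnfrsf9 and Il17re they lie above them.

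Of the 7 expressed receptors of the interferon and IL-10 family, PA lowered 2 and raised none, and C3G raised 1 relative to PA, where 51.0% and 21.2% of all tested genes were called. Ifngr1, the ligand-binding chain for interferon-γ, was 18.21 to 19.79 FPKM with BSA, 15.59 to 16.04 with PA and 14.98 to 17.85 with PA + C3G, and fell by 0.23 ± 0.07 with PA (edgeR adjusted p = 0.0209). The call was lost without BSA replicate 1 or PA replicate 1 (adjusted p 0.0512 to 0.0685). Ifngr2, Ifnar1, Ifnar2, Ifnlr1 and Il10rb were called in no comparison, with log2 fold changes between −0.11 and 0.26. Exceptions were Ifnar2 for PA + C3G against BSA without BSA replicate 2 (0.34) and Il10rb for PA + C3G against PA without PA replicate 2 (0.37). Il20ra, a chain of the receptors for IL-19, IL-20 and IL-24, was 3.588, 2.888 and 3.409 FPKM with BSA, 1.209, 0.8258 and 1.09 with PA, and 2.218, 1.62 and 1.876 with PA + C3G, and the groups did not overlap. Its log2 fold change was −1.63 ± 0.19 for PA (adjusted p = 7.2e-05) and 0.91 ± 0.19 for PA + C3G against PA (adjusted p = 0.00925). Il20rb, the chain it pairs with, reached 0.1015 FPKM at most.

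Among the IL-17 receptors, Il17re, a chain of the IL-17C receptor, was higher in each step. It stood at 0.7439, 0.7232 and 0.8727 FPKM with BSA, 1.291, 1.058 and 1.385 with PA, and 2.629, 1.642 and 1.982 with PA + C3G. The 3 groups did not overlap, and PA + C3G exceeded BSA by 1.47 ± 0.20 on the log2 scale (edgeR adjusted p = 0.000347). The steps in between were 0.69 ± 0.20 for PA (adjusted p = 0.0155) and 0.78 ± 0.20 for PA + C3G against PA (adjusted p = 0.0208). The former was lost without BSA replicate 2 or PA replicate 3 (adjusted p 0.0508 to 0.0524) and the latter without PA replicate 1 or 2 or PA + C3G replicate 1 (adjusted p 0.0504 to 0.0726). The call for PA was also lost with limma on log2(FPKM + 1) (adjusted p = 0.0719). The call against PA was lost with limma on log2(FPKM + 0.1) (adjusted p = 0.0633). Il17ra, the chain shared by the family, held 21.71 to 25.26 FPKM. It was 0.18 ± 0.04 higher in PA + C3G than in PA (adjusted p = 0.0137), a call lost at equal FPKM sums (adjusted p = 0.135).

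The receptors of the TGF-β family were mostly not called. The type I receptor genes Acvr1b, Bmpr1a, Tgfbr1 and Acvr1 had log2 fold changes between −0.15 and 0.20 in the 3 comparisons and passed in none. Leaving out 1 library called Acvr1b for PA + C3G against BSA (0.15 without PA + C3G replicate 3) and Tgfbr1 for PA + C3G against PA (0.32 without PA + C3G replicate 1). Acvr1c, the type I receptor ALK7, was 1.405, 1.245 and 1.237 FPKM with BSA, 1.332, 1.441 and 1.441 with PA, and 0.839, 0.7631 and 0.7784 with PA + C3G. Every PA + C3G library was under the other 6, with a log2 fold change of −0.78 ± 0.13 against PA (edgeR adjusted p = 0.00295) and −0.64 ± 0.13 against BSA (adjusted p = 0.00336). The activin type II receptor Acvr2a fell by 0.30 ± 0.08 with PA (adjusted p = 0.00997). Acvr2b rose by 0.61 ± 0.21 (adjusted p = 0.0325), with BSA and PA libraries that overlapped, and its call was lost without BSA replicate 2 or 3 or PA replicate 2 or 3 (adjusted p 0.0871 to 0.116). Bmpr2, a type II receptor that most tissues use, was listed at 0 in 7 of 9 libraries, as was Ltbr of the TNF family. An estimate of 0 in this table therefore says only that the gene was listed at 0.

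The remaining receptor genes were Cxcr4 and Cd4. Cxcr4, the receptor for CXCL12 and the 1 expressed chemokine receptor of 7, was 7.158, 7.768 and 7.933 FPKM with BSA, 2.72, 4.269 and 3.097 with PA, and 3.829, 4.923 and 4.844 with PA + C3G. Both treated groups lay under BSA and overlapped with each other. Differences on the log2 scale were −1.15 ± 0.18 for PA (edgeR adjusted p = 0.000427) and −0.69 ± 0.18 for PA + C3G against BSA (adjusted p = 0.0122). Cxcr4 missed the threshold between PA + C3G and PA (0.47 ± 0.18, adjusted p = 0.0909). There it was called by DESeq2 (0.46, adjusted p = 0.0311), with the replicate number as a block (0.48) and without PA replicate 2 (0.68). Its ligand gene Cxcl12 lay at 0.2733 FPKM or less. Cd4, a T cell co-receptor that the KEGG pathway includes, fell from 3.268 to 4.294 FPKM with BSA to 1.058 to 1.743 with PA (−1.25 ± 0.27, adjusted p = 0.00364). The 1 listed T cell marker was at 0 in every BSA and PA + C3G library.

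Among the ligands, those of the TGF-β family formed the largest expressed group, with 10 of 24 genes. PA raised 6 of the 10 and lowered 1, where 25.8% of all tested genes were called higher and 25.2% lower. Tgfb2 (ENSRNOG00000002418, chr13:105039853-105141030) had the largest fall with PA of all expressed members. It stood at 9.794, 8.798 and 11.08 FPKM with BSA, 1.533, 1.941 and 1.655 with PA, and 4.341, 5.597 and 6.301 with PA + C3G, and the groups did not overlap. On the log2 scale the differences were −2.51 ± 0.16 for PA (edgeR adjusted p = 1.02e-06), 1.70 ± 0.15 for PA + C3G against PA (adjusted p = 0.00018) and −0.81 ± 0.15 for PA + C3G against BSA (adjusted p = 0.00199). Tgfb1, which binds the same receptors, went the opposite way. It was 2.603, 2.805 and 2.651 FPKM with BSA, 6.386, 5.12 and 6.131 with PA, and 6.384, 7.667 and 7.462 with PA + C3G. The rise with PA was 1.15 ± 0.12 (adjusted p = 2.48e-05), and PA + C3G overlapped with PA (0.32 ± 0.11, adjusted p = 0.0717, called by DESeq2). Tgfb1 was therefore the lower of the pair in every BSA library and the higher in every library of the other groups, on the FPKM scale.

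Of the bone morphogenetic protein genes, Bmp2 and Bmp3 were expressed, and both rose with PA. Bmp2 (ENSRNOG00000021276, chr3:126335863-126346318) was 2.313, 2.038 and 2.246 FPKM with BSA, 10.2, 10.88 and 10.73 with PA, and 8.23, 7.061 and 8.227 with PA + C3G. Bmp3, an atypical member that can oppose other BMPs, was 9.745, 9.545 and 8.824 FPKM with BSA, 31.49, 37.01 and 35.06 with PA, and 22.61, 23.5 and 23.47 with PA + C3G. For both genes the 3 groups did not overlap, and PA + C3G lay nearer to PA than to BSA on the log2 scale. Bmp2 rose by 2.29 ± 0.09 with PA (edgeR adjusted p = 6.57e-08) and was 0.40 ± 0.08 lower on the log2 scale in PA + C3G than in PA (log2 fold change −0.40, adjusted p = 0.00973). Bmp3 rose by 1.91 ± 0.06 (adjusted p = 3.53e-08), and its log2 fold change for PA + C3G against PA was −0.54 ± 0.06 (adjusted p = 0.000547).

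The 3 expressed growth differentiation factor genes, Gdf15, Gdf11 and Gdf1, rose with PA and did not pass between PA + C3G and PA. Gdf15, a cytokine released by stressed cells, was 32.11, 25.39 and 25.2 FPKM with BSA, 66.54, 49.54 and 65.72 with PA, and 63.83, 50.51 and 58.18 with PA + C3G, the last 2 groups overlapping. Its log2 fold change was 1.16 ± 0.14 for PA (edgeR adjusted p = 7.81e-05) and −0.04 ± 0.14 for PA + C3G against PA (adjusted p = 0.875). Gdf11, close in sequence to myostatin, rose by 0.66 ± 0.05 with PA (adjusted p = 2.51e-06), and Gdf1 by 0.65 ± 0.07 (adjusted p = 3.6e-05). Neither passed between PA + C3G and PA, with values of −0.04 and −0.05. Gdf1 overlaps Cers1 on the same strand, from which it can be transcribed as a joint message, and the 2 may not be separable (Cers1 mean 0.89 FPKM).

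Inhbe, the βE subunit of activin, was 2.783, 5.942 and 3.751 FPKM with BSA, 4.207, 4.799 and 4.576 with PA, and 7.35, 9.385 and 7.825 with PA + C3G. All PA + C3G libraries were above the other 6. On the log2 scale it differed by 0.89 ± 0.23 against PA (edgeR adjusted p = 0.0239) and 1.04 ± 0.23 against BSA (adjusted p = 0.00652). The value against PA was not called without any 1 of the PA libraries or without PA + C3G replicate 2 or 3 (adjusted p 0.0528 to 0.0746). Without BSA replicate 2, which held the highest BSA value, PA against BSA gave 0.49 and was called (adjusted p = 0.0298). The promoter of Inhbe is the 1 shown above with the C/EBP-ATF element. The other activin subunit genes Inhba and Inhbb passed in no comparison.

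The helical cytokine ligands were 5 expressed genes of 13. Il23a, the p19 subunit of IL-23 (ENSRNOG00000003254, chr7:2710609-2712723), had the largest rise with PA of all expressed members. It was 0.4198, 0.9115 and 0.7184 FPKM with BSA, 4.881, 3.347 and 4.322 with PA, and 1.95, 1.222 and 1.22 with PA + C3G. The groups did not overlap. The differences were, on the log2 scale, 2.63 ± 0.32 for PA (edgeR adjusted p = 8.62e-05), −1.47 ± 0.30 for PA + C3G against PA (adjusted p = 0.00856) and 1.16 ± 0.31 for PA + C3G against BSA (adjusted p = 0.0148). The last was not called without PA + C3G replicate 1 (0.89, adjusted p = 0.0561). Il12b, which encodes the other subunit of IL-23, is not analysed here. The receptor gene Il23r averaged 0.899, 1.39 and 0.56 FPKM and was not called in the fit without a filter on low values. Its PA libraries, at 1.288 to 1.562 FPKM, lay above all others. It was listed at 0 in PA + C3G replicate 1, beside 1.017 and 0.6632 FPKM in replicates 2 and 3, so the mean of that group rests on this estimate.

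Il15, which acts on lymphocytes, was 4.592, 4.613 and 5.407 FPKM with BSA, 1.684, 3.492 and 2.021 with PA, and 3.467, 2.893 and 2.059 with PA + C3G. It fell by 0.98 ± 0.30 with PA (edgeR adjusted p = 0.0205), and the call was lost without BSA replicate 3 or PA replicate 1 or 3 (adjusted p 0.0604 to 0.0697). Cntf, ciliary neurotrophic factor, fell by 0.52 ± 0.16 with PA (adjusted p = 0.0213), and was not called without BSA replicate 1 or 3 or PA replicate 2 or 3 (adjusted p 0.051 to 0.0738). Il11, a ligand of the gp130 type, was 1.806, 1.517 and 1.724 FPKM with BSA, 1.094, 1.853 and 1.303 with PA, and 2.8, 1.861 and 2.53 with PA + C3G. The PA + C3G libraries lay above the PA libraries by a narrow margin, 1.861 against 1.853 at the closest. It differed by 0.79 ± 0.23 on the log2 scale (adjusted p = 0.0384). It was lost under 5 of the other settings and without any 1 of 6 libraries, namely replicates 1 and 3 of each group (adjusted p 0.0504 to 0.125 in all). Csf1, the growth factor of macrophages, was higher in PA + C3G (4.382 to 4.87 FPKM) than in PA (3.221 to 3.61 FPKM), with a log2 fold change of 0.48 ± 0.09 (adjusted p = 0.00479). Its receptor Csf1r averaged 0.0642 FPKM.

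**Figure D4:**
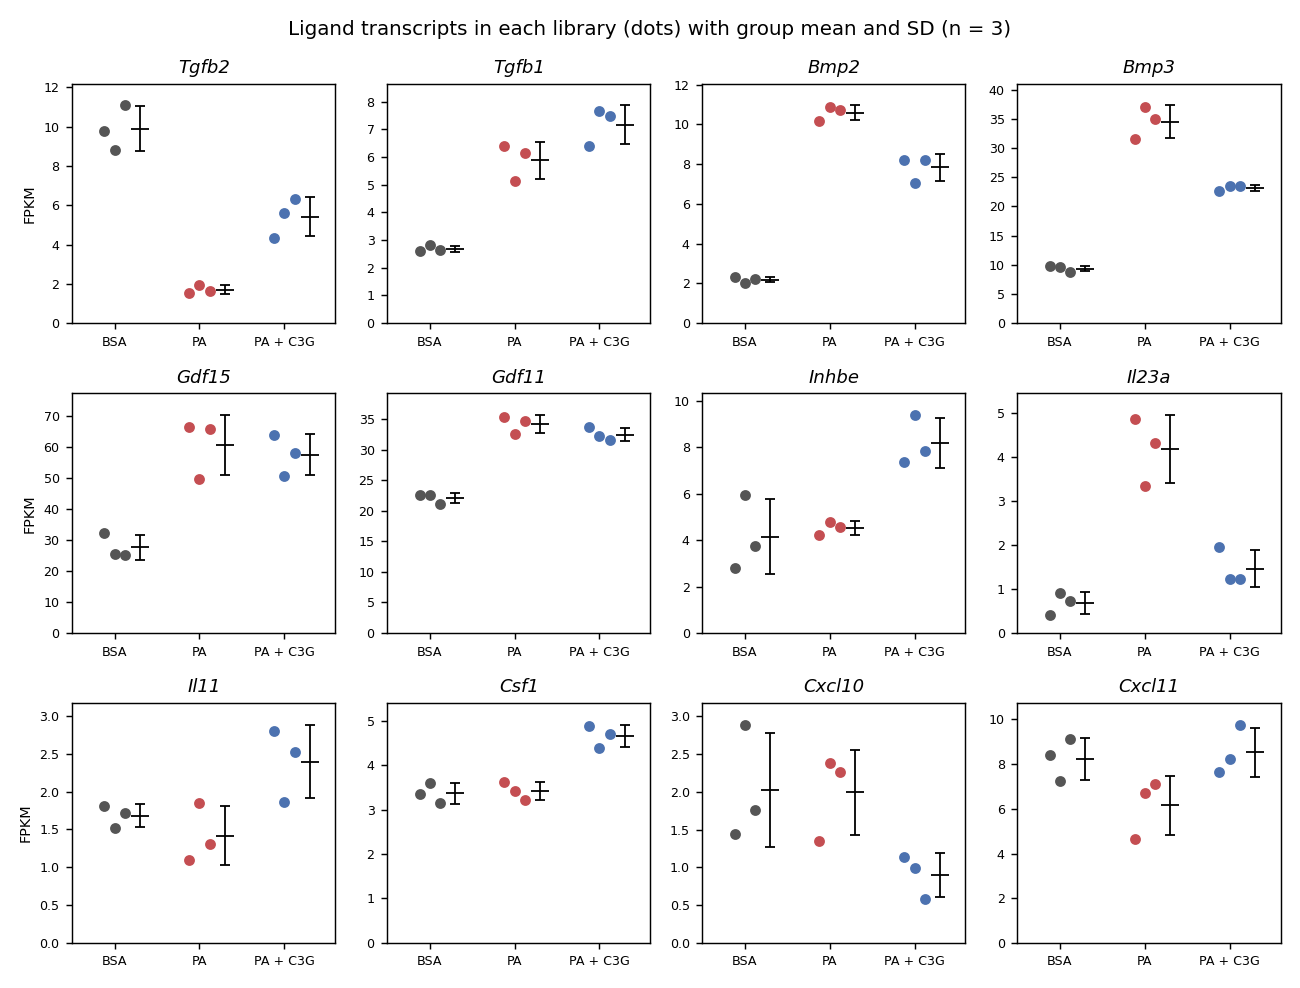
FPKM (y axis, starting at 0) of 12 ligand genes in each library of the BSA, PA and PA + C3G groups (x axis), with dots for libraries and a bar for the group mean and its SD (n = 3). Tgfb2 is lowest with PA, Bmp2, Bmp3 and Il23a are highest with PA, and Inhbe and Csf1 are highest with PA + C3G.

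PA called none of the 4 expressed chemokine ligands of 14. Cxcl10, which attracts activated T cells, was 1.448, 2.886 and 1.759 FPKM with BSA, 1.347, 2.382 and 2.259 with PA, and 1.137, 0.9975 and 0.5786 with PA + C3G. The PA + C3G libraries lay under the other 6. The log2 fold change was 0.00 ± 0.34 for PA (−0.202 without BSA replicate 1), −1.08 ± 0.35 for PA + C3G against PA (edgeR adjusted p = 0.055) and −1.08 ± 0.35 against BSA (adjusted p = 0.0362). Against PA it was called by DESeq2, at equal FPKM sums (−1.17), without BSA replicate 2 (−1.08) and without PA replicate 1 (−1.30). The call against BSA was lost without a filter on low values (adjusted p = 0.0508) and without BSA replicate 2 or 3 or PA + C3G replicate 2 or 3 (adjusted p 0.0534 to 0.123). Cxcl11, its neighbour on chromosome 14 with the same AP-1 and NF-κB letters in the sequence shown above, was 7.243 to 9.106 FPKM with BSA, 4.662 to 7.111 with PA and 7.64 to 9.749 with PA + C3G. It passed in none of the comparisons by edgeR, with a log2 fold change of −0.40 for PA (adjusted p = 0.0772) and 0.51 for PA + C3G against PA (adjusted p = 0.0622). DESeq2 called both values (adjusted p = 0.0273 and 0.0105), as did edgeR with the replicate number as a block (adjusted p = 0.0408 and 0.0348). Cxcl16, at 8.667 to 11.59 FPKM, and Ccl27 passed in none, except that Ccl27 was called for PA against BSA without PA replicate 1 (−1.29). The 3 expressed ligands of the TNF family, Tnfsf10 (TRAIL), Tnfsf12 (TWEAK) and Eda, likewise passed in none, with log2 fold changes between −0.23 and 0.19.

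Of the 96 genes under a mean of 1 FPKM, 87 stayed under 1 FPKM in every library, and 51 had a mean under 0.1 FPKM. There were 19 members listed at 0 in 8 of 9 libraries, among them Tnf, Il1a, Il10, Cxcl2 and Ccl20. Cxcl1 reached 0.3546 FPKM at most. Il6, Ifng and Ccl2 are not analysed here. The 9 genes that reached 1 FPKM in some library were Il23r, Il18r1, Tnfrsf11a, Amhr2, Il15ra, Il17rb, Tnfrsf14, Faslg and Ccl17. Without a filter on low values, 15 of the 96 were called for PA against BSA (7 higher, 8 lower), 3 for PA + C3G against PA and 6 for PA + C3G against BSA. Of all genes in that fit, 32.3%, 11.8% and 21.8% were called.

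Faslg, the ligand of the death receptor Fas, was among the scarce genes that differed with PA. Its libraries held 0.3021, 0.3266 and 0.1197 FPKM with BSA, 0.9528, 1.4 and 1.27 with PA, and 0.1003, 0.3135 and 0.09774 with PA + C3G. The PA libraries lay above the other 6, and the log2 fold change without a filter was 2.27 ± 0.51 for PA (edgeR adjusted p = 0.00484) and −2.73 ± 0.52 for PA + C3G against PA (adjusted p = 0.00692). Fas itself averaged 0.71, 0.587 and 0.518 FPKM. Tnfrsf11a, the receptor RANK, moved the opposite way, at 1.475, 1.113 and 1.497 FPKM with BSA, 0.5081, 0.4467 and 0.4417 with PA, and 1.016, 0.8994 and 0.6746 with PA + C3G. Its values without a filter were −1.52 ± 0.22 (adjusted p = 0.000297) and 0.92 ± 0.22 (adjusted p = 0.0208). Il33, an alarmin of the IL-1 family, fell with PA by 0.92 on the log2 scale (adjusted p = 0.0348) and was lower again in PA + C3G (−1.23 against PA, adjusted p = 0.0264), at 0.1288 to 0.1938 FPKM. Il33 was chosen after its values were seen. Faslg and Tnfrsf11a were named because they reached 1 FPKM in some library. Faslg did so only with PA and Tnfrsf11a only in the other groups, so their tests are not independent of that choice.

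Genes that act downstream of the receptors were counted in 5 lists. Of 24 expressed genes of JAK-STAT signalling, PA raised 9 and lowered 4, and in PA + C3G against PA 2 were higher and 2 lower. For these and the following lists, the shares of all tested genes called were 51.0% for PA (25.8% higher, 25.2% lower) and 21.2% for PA + C3G against PA (11.1% higher, 10.2% lower). Cish and Socs2, feedback inhibitors that growth hormone and prolactin induce, fell by 0.60 and 0.30 on the log2 scale with PA (edgeR adjusted p = 3.1e-05 and 0.000589) and differed by −0.03 and −0.01 between PA + C3G and PA. Of the other Socs genes, Socs3 and Socs5 rose with PA, by 0.42 and 0.19 (adjusted p = 0.0114 and 0.0038). Socs1, Socs4, Socs6 and Socs7 were not called for PA against BSA. Stat3 fell by 0.18 with PA (adjusted p = 0.00599) and was 0.39 higher in PA + C3G than in PA (adjusted p = 0.000405), and Stat2 rose by 0.70 with PA (adjusted p = 4e-06). Pias3, Tyk2 and Stat6 also rose with PA, by 0.53, 0.45 and 0.47 (adjusted p = 2.84e-05, 0.000166 and 0.000667).

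Of 28 expressed genes of NF-κB signalling, PA raised 7 and lowered 4 (51.0% of all tested genes called), and against PA alone the PA + C3G group had 2 higher and 2 lower. Nfkbia, the inhibitor IκBα and itself a target of NF-κB, fell from 11.3 to 7.06 FPKM with PA (log2 fold change −0.65, edgeR adjusted p = 0.00044) and stood at 8.83 FPKM with PA + C3G (0.36 against PA, adjusted p = 0.0301). Traf5, an adaptor of TNF receptors, fell by 1.40 on the log2 scale with PA (adjusted p = 0.00106) and was 0.91 higher in PA + C3G (adjusted p = 0.0276). Irak1, a kinase of the IL-1 pathway, rose by 0.44 with PA (adjusted p = 2.81e-06). Nfkb1 and Rel also rose with PA, by 0.32 and 0.65 (adjusted p = 0.00277 and 0.0144), whereas Birc2 fell by 0.56 (adjusted p = 2.76e-05). Tnfaip3, Nfkb2, Relb and Birc3 were not called for PA against BSA.

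Of 20 expressed genes of SMAD signalling, PA raised 5 and lowered 3 (51.0% of all tested genes called), and the PA + C3G group had 4 lower and none higher than PA alone (21.2%). The 4 were Id1 and Id2, both known targets of BMP signalling, and Smad4 and Tgif1. Smad6 and Smad7 were called in no comparison. Id2 stood at 9.55 FPKM with BSA, 32.1 with PA and 12.9 with PA + C3G, with log2 fold changes of 1.77 (edgeR adjusted p = 1.88e-05) and −1.28 (adjusted p = 0.001). Id1 stood at 29.8, 52.3 and 34.7 FPKM, with values of 0.84 (adjusted p = 0.000516) and −0.56 (adjusted p = 0.0157), whereas Id3 passed in no comparison and Id4 was lower with PA (−0.31, adjusted p = 0.0117). Bambi, a pseudoreceptor that dampens the pathway, rose by 0.78 with PA (adjusted p = 1.43e-06) and did not pass between PA + C3G and PA (−0.08).

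Of 14 expressed interferon response genes, PA raised 5 and lowered none (25.8% and 25.2% of all tested genes), among them B2m of the MHC class I complex (0.93, edgeR adjusted p = 1.87e-06) and Bst2 (0.85, adjusted p = 0.00661). The transcription factor gene Irf1 and the genes Isg15, Irf7 and Usp18 were not called in any comparison. In PA + C3G against PA 1 was higher, Irf2 (0.25, adjusted p = 0.00727). Of 12 expressed genes of death receptor signalling, PA raised 3 and lowered 1 (51.0% of all tested genes called). Cflar, an inhibitor of caspase-8 activation, rose by 0.82 (adjusted p = 0.00104), Bid by 0.53 (adjusted p = 0.00135) and Bax by 0.20 (adjusted p = 0.0303), and Ripk1 fell by 0.21 (adjusted p = 0.00986).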

How the data were processed

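Polyadenylated RNA of 9 INS-1E samples, 3 per group, was sequenced by the authors. The submitters' processing notes name cutadapt 1.9, HISAT2 2.0.4, StringTie 1.3.4d, DESeq2 and edgeR; the genome build is not given in the sources used here. The authors deposited 1 table with estimated counts per gene, which are not normalized, and FPKM, which correct for gene length and depth. Low counts pile up at multiples of 4 (2.44 times as many genes at 4 as the mean of those at 3 and 5), so dividing by 4 was tried as an alternative. Intervals are standard errors of the fit and depth limits the scarce genes.

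Estimated counts were rounded and tested in R 4.3.3 with edgeR 4.0.16 (normalization by TMM, quasi-likelihood test, all 9 libraries, genes with a mean of at least 1 FPKM, Benjamini-Hochberg adjustment, threshold 0.05). Figures used Python 3.11.15. Alternatives were DESeq2 1.42.0, its size factors, equal FPKM sums, other filters, only the compared groups, the replicate number as a block, limma 3.58.1 on log2(FPKM + 1) and log2(FPKM + 0.1), a fold change above 2, and leaving out each library. Downstream and marker lists were written by hand. The members and lists were chosen with earlier results of these data known. Named were the 10 highest expressed members, up to 10 rises and 10 falls per comparison without overlap, common inflammatory cytokines, Il1r1, Tnfrsf1a, Ifngr1, Prlr, Ghr, partners and ligands of named receptors, and members under 1 FPKM that reach it in a library. Other members named were added after their values were seen, which holds for every remaining gene called in a comparison. On simulated data with 200 of 12958 genes changed, for PA against BSA, 78% of genes changed by a factor of 2 were called and 5.74% of 122 calls were false. In the real data 51.0% of tested genes were called for PA against BSA, so these simulated shares do not carry over to the comparisons here. A result for 1 gene is not reported here.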

Additional observations from a re-analysis of the deposited data

How the results depend on the processing

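The counts of called members kept within 1.5 times of their values under each alternative, except at more than 2-fold and an unadjusted p under 0.05, where they were 12 for PA against BSA, 5 for PA + C3G against PA and 9 for PA + C3G against BSA. A mean of at least 5 FPKM left 40 expressed members. Leaving out 1 library at a time gave 26 to 32, 15 to 23 and 25 to 31 called members. Of the calls, 23 of 32, 13 of 21 and 24 of 28 passed under every alternative in which the gene was tested at an adjusted p-value. The replicate number as a block gave 32, 24 and 32 calls. Deviations of same-numbered libraries correlated at −0.0473 to 0.105 across all tested genes. This value cannot tell whether single genes share a replicate effect. For Ghr, replicate 1 was highest and replicate 2 lowest in each group. With the block, calls were gained for PA + C3G against BSA in Ngfr (−0.45), Acvr1b (0.12), Cd4 (−0.76) and Il1rap (−0.42). Gains for PA + C3G against PA were Ghr (0.14), Tnfrsf12a (0.39), Cxcr4 (0.48) and Cxcl11 (0.51). Cxcl11 was gained for PA against BSA too (−0.41). Acvr2b lost its call for PA against BSA, and Il11 for PA + C3G against PA. Each value in which an alternative changed the sign was uncalled with both signs, except that, for PA against BSA, Inhbe was called without BSA replicate 2 and Ccl27 without PA replicate 1. Crlf2 for PA + C3G against PA was −0.0034 with equal FPKM sums, and Acvr1b −0.0087. Cntfr for PA + C3G against BSA was −0.00012 with equal FPKM sums, −0.0052 and −0.0053 with limma at pseudocounts of 1 and 0.1, and −0.0215 to 0.097 when 1 library was left out, the lowest without PA + C3G replicate 1. Il6st, when 1 library was left out, was −0.054 to 0.093 for PA and −0.090 to 0.057 for PA + C3G against BSA, both lowest without BSA replicate 2. When 1 library was left out, the values for PA + C3G against PA were −0.000325 to 0.211 for Inhbb, −0.188 to 0.439 for Tslp and −0.27 to 0.347 for Inhba, and those for PA against BSA were −0.112 to 0.302 for Eda and −0.0588 to 0.552 for Inhba. Cxcl10 for PA against BSA, 0.00 with all libraries, was negative under 12 alternatives, down to −0.202. The cause was not tested. Over the 66 expressed members there were 118 sign changes, in 30 genes. Depth limits the scarce genes.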
